A study of Rattus norvegicus with 5 samples.

Results

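Glutathione S-transferases were followed on 5 arrays of rat hippocampus as 10 listed genes, Gsta1, Gsta2, Gsta3, Gsta4, Gstm1, Gstm2, Gstp1, Gstt1, Gstt2 and Mgst1. A probe set, a group of short oligonucleotides that together report 1 transcript, was taken as a member when the platform annotation gave it exactly 1 gene symbol and that symbol was on the list. This found 19 probe sets for 9 genes among the 8740 probe sets that are not array controls. Gsta2 had none of its own, since both probe sets that name it also name Gsta5. Of the 19, 16 probe sets of 8 genes passed the filter on dim signals and were tested.

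The tissue was hippocampus of rats labelled P5, measured as total RNA. The FAE group (fetal alcohol exposed) had 2 arrays, the isocaloric diet, a feeding control, 1 array and the control diet 2 arrays. The labels name no strain, sex, dose or alcohol schedule and do not say whether a sample was 1 animal or a pool, so the spread between arrays of a group may in part be technical. In bulk tissue such as this, fewer cells of a type and less RNA per cell cannot be told apart.

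Glutathione S-transferases join the tripeptide glutathione to electrophiles, among them products of lipid peroxidation, which are then exported from the cell. The cytosolic enzymes work as dimers and fall into classes by sequence, here alpha (Gsta), mu (Gstm), pi (Gstp) and theta (Gstt), while Mgst1 is a membrane enzyme of another fold, the MAPEG family. In brain the mu class is known from astrocytes and the pi class from the oligodendrocyte lineage and astrocytes. Many of the genes respond to the transcription factor NRF2, which binds the antioxidant response element together with small Maf proteins.

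The core of that element, TGACNNNGC, was looked for on both strands of the RefSeq promoter windows (GRCr8, 250 bases before to 50 after the start), because it is the sequence through which such genes can respond together. Of the 10 genes, 8 had a window, and Gsta3 had 2, of which 1 held the core. In all, 4 of 9 windows held it, those of Gsta1, Gsta2, Gsta3 and Gstp1, as did 12.1% of all 33469 windows of this length. The matches of 3 genes measured here are shown 5′ to 3′ on the gene's strand with 10 bases on either side and the core in capitals.
Gsta1: aactcaggcaTGACTTTGCatttttcttc
Gsta3: aactcaggcaTGACTTCGCattttttcct
Gstp1: tccactgtgtTGACTCAGCatccggggcg
The Gsta1 run lies at chr9:31216484-31216512 on the minus strand, with the first base of the core at position 31 counted from the start. The Gsta3 run lies at chr9:31154962-31154990 on the plus strand, with the first base of the core 17 bases before the start (position -17). The Gstp1 run lies at chr1:210769748-210769776 on the minus strand, with the core beginning at position -61. The Gsta1 and Gsta3 runs had the same letter at 24 of 29 positions. The windows of Gsta4, Gstm1, Gstm2 and Mgst1 held no match, which says only that these letters are not in this window.

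The deposited intensities are linear signals, and their 2% trimmed means on the 5 arrays lay between 150.19 and 150.22. Values under 10.605, the 20th percentile of all values, are called under the offset below, since this offset was added before taking log2 and such values have no reliable order. Differences are given on the log2(intensity + offset) scale, which understates those of dim probe sets. Levels of different probe sets depend on their oligonucleotides and were not set against one another. The number of arrays limits the precision.

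No member passed the threshold (limma adjusted p under 0.05) in any comparison, and in each comparison 0 of all 5244 tested probe sets (0%) did. In FAE minus control, 4 of the 16 member probe sets had an unadjusted p under 0.05, all lower in FAE, where 3.95% of all probe sets did, and 0 of 16 were higher at that level, against 1.66%. The same 4 probe sets had both FAE arrays below both control arrays with at least a 1.5-fold difference, a rule met by 3.91% of all probe sets. In the other direction 0 of 16 met it, against 1.54%. Whatever the size, both FAE arrays lay below both control arrays at 6 of 16, against 17.7% of all probe sets, and above them at 1 of 16, against 16.8%. The 4 represent 2 genes, Gsta1 with 3 probe sets that share a target and Gstm2 with 1. The filter was set on the mean over the 5 arrays, at an intensity of 33.39. Gsta1 K01932_f_at and S72505_f_at lay below that level on both FAE arrays. They were thus tested only because of their values on the isocaloric and control arrays, and these counts are not support for a difference. With the brightest probe set alone for each gene, 1 of 8 genes met the rule, Gsta1, against 3.21% of 3174 genes lower and 1.2% higher. A test that permutes 2 arrays against 2 exactly cannot give a 2-sided p below 0.333.

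**Figure D1:**
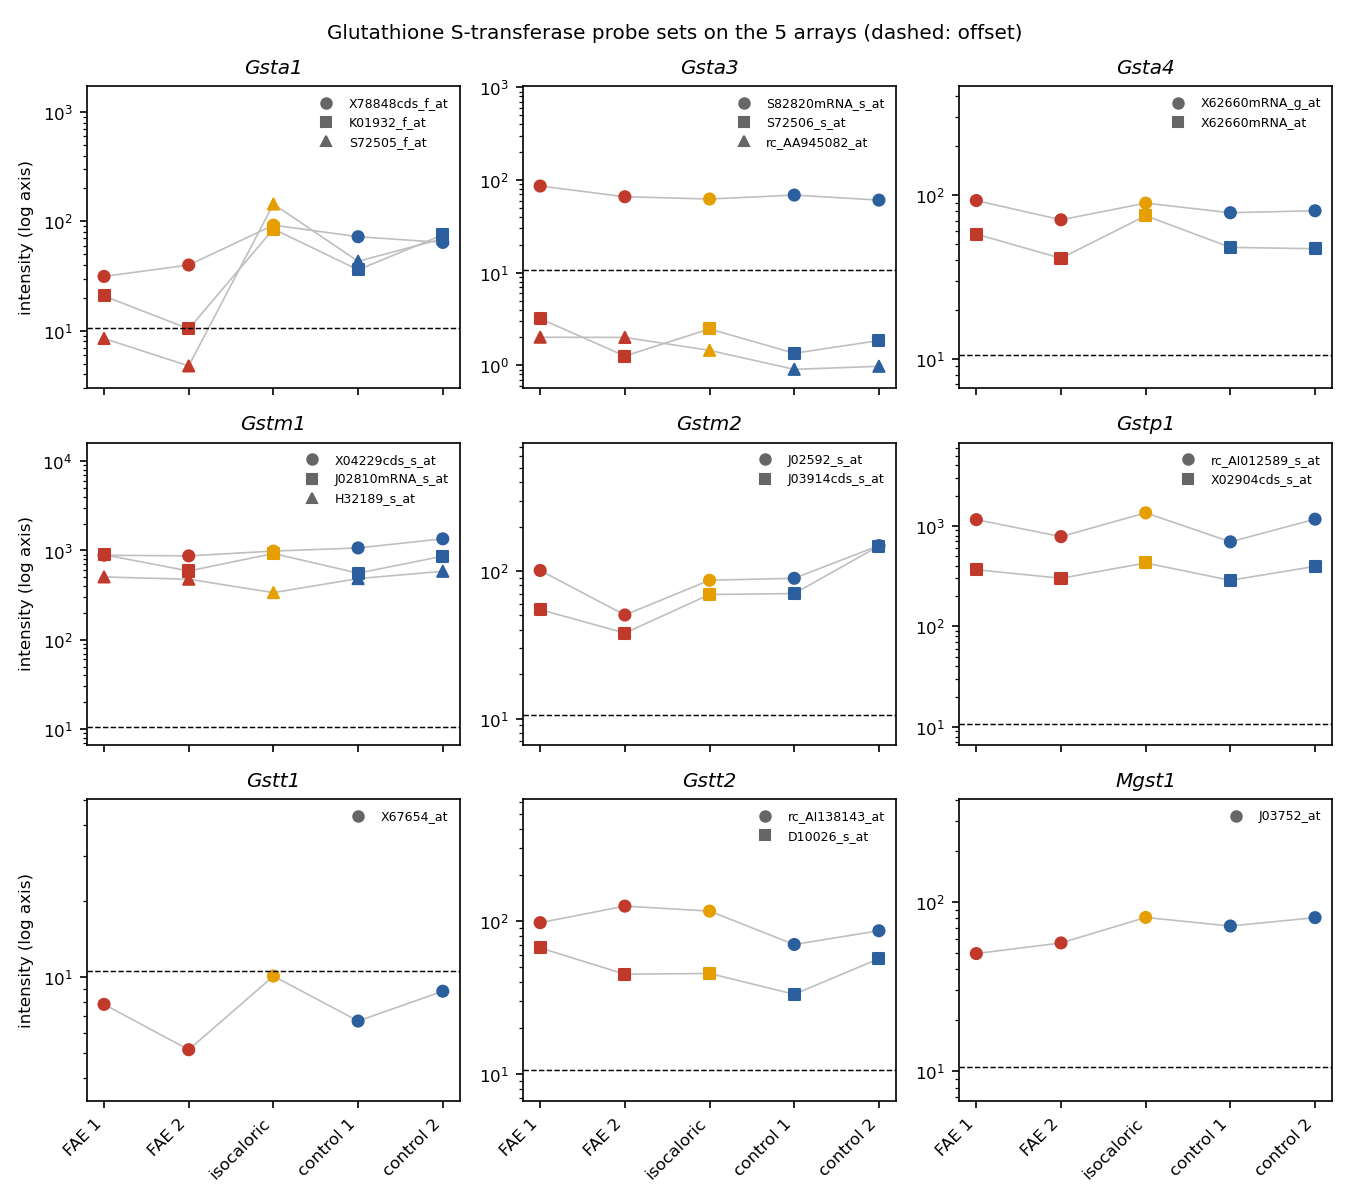
Intensity (log axis) of each member probe set on the FAE, isocaloric and control arrays, 1 panel per gene and 1 symbol shape per probe set; the dashed line is the offset of 10.605. All 3 Gsta1 probe sets are lower on both FAE arrays than on the other arrays, while Gstp1 and the J02810mRNA_s_at probe set of Gstm1 differ as much within a group as between groups.

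In the alpha class, Gsta1 had less signal in FAE at all 3 of its probe sets. This enzyme has transferase and peroxidase activity towards lipid hydroperoxides. Probe set X78848cds_f_at measured 31.4 and 39.9 on the FAE arrays, 92.4 in the isocaloric sample and 72.4 and 64.2 on the control arrays. K01932_f_at measured 20.8 and 10.4 on the FAE arrays, 85.2 in the isocaloric sample and 36.1 and 75.2 on the control arrays. S72505_f_at measured 8.50 and 4.77 on the FAE arrays, 144 in the isocaloric sample and 43.2 and 69.4 on the control arrays. In each probe set both FAE arrays lay below the 3 alcohol-free arrays, and the isocaloric array was the highest. Both FAE values of S72505_f_at and 1 of K01932_f_at were under the offset.

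The ratio of group means, FAE over control, was 0.522 for X78848cds_f_at, whose values all lay above the offset. At all 3 probe sets the size of the log2 difference depends on the offset. For X78848cds_f_at it was -0.93 with an offset of 1 and -0.47 with an offset of 50. With the offset of 50 this probe set did not meet the 1.5-fold rule. The log2 difference of FAE minus control was -0.77 ± 0.24 (SE) for X78848cds_f_at, -1.30 ± 0.35 for K01932_f_at and -1.94 ± 0.29 for S72505_f_at. Their limma adjusted p-values were 0.658, 0.573 and 0.132, in that order. Gsta1 S72505_f_at gave -2.09 without FAE array 1 and -1.78 without FAE array 2. It passed with arrays scaled to equal medians (-1.90, limma adjusted p = 0.00803). Over the alternatives that kept both FAE and both control arrays, its adjusted p ranged from 0.00232 to 0.642, the highest with no filter. This probe set entered the test only through its values on the isocaloric and control arrays, so its passes are not support for a difference. With an FAE array left out, 1 FAE array stood against 2 control arrays. The only spread within a group was then that of the control pair, which limma draws towards the spread over all tested probe sets. The suffix f of these 3 names marks, in the array maker's naming, probes that match a family of similar sequences. Signal from other alpha genes therefore cannot be separated from that of Gsta1, and older symbols of Gsta1 in RefSeq include Gsta3 and Gsta5.

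Against the isocaloric array, Gsta1 was also lower in FAE at every probe set. The differences were -1.16 ± 0.29 for X78848cds_f_at, -1.90 ± 0.43 for K01932_f_at and -3.17 ± 0.35 for S72505_f_at, the last with an adjusted p of 0.0714, the smallest of all probe sets in that comparison. Gsta1 S72505_f_at passed there with quantile normalization (-3.20, limma adjusted p = 0.0155) and with equal medians (-3.19, 0.000577), and had 0.782 with no filter. It gave -3.33 without FAE array 1 and -3.02 without FAE array 2. All these fits take the spread for the single isocaloric array from the other groups, and the passes rest on that assumption. With an FAE array left out they set 1 array against 1, and the control pair held the only spread within a group. Here too the probe set was tested only because of its values on the isocaloric and control arrays. The 2 FAE comparisons share their FAE arrays. Isocaloric minus control gave 0.39 ± 0.29 for X78848cds_f_at, 0.60 ± 0.43 for K01932_f_at and 1.24 ± 0.35 for S72505_f_at, with adjusted p-values of 0.853, 0.853 and 0.555.

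Most tested markers of the choroid plexus, an epithelium next to the hippocampus, were lowest on the FAE arrays, as Gsta1 was. Of its 12 listed markers 7 had a probe set, and their summed intensity was 1223 and 312.9 on the FAE arrays, 6109 in the isocaloric sample and 5719 and 5373 on the control arrays. Without Ttr, which dominates this sum, the other 6 summed to 219.4 and 243.7 on the FAE arrays, 717.7 in the isocaloric sample and 421.6 and 487.5 on the control arrays. Kcnj13 was under the offset on every array. Sostdc1, an antagonist of bone morphogenetic proteins, measured 42.2 and 71.7 on the FAE arrays, 329 in the isocaloric sample and 133 and 137 on the control arrays. As with Gsta1, the isocaloric array was the highest and the FAE arrays were the lowest. Of the 5 tested markers 4, Ttr, Aqp1, Sostdc1 and Enpp2, were at least 1.5-fold lower in FAE than in control without overlap. Over 3174 genes that share was 3.21%, and 0 of the 5 markers passed the adjusted test. The fifth, Prlr, the prolactin receptor, measured 44.9 and 38.9 on the FAE arrays, 37.0 in the isocaloric sample and 39.6 and 41.4 on the control arrays, so it did not share this order. The part of choroid plexus tissue in the Gsta1 values was not tested.

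**Figure D2:**
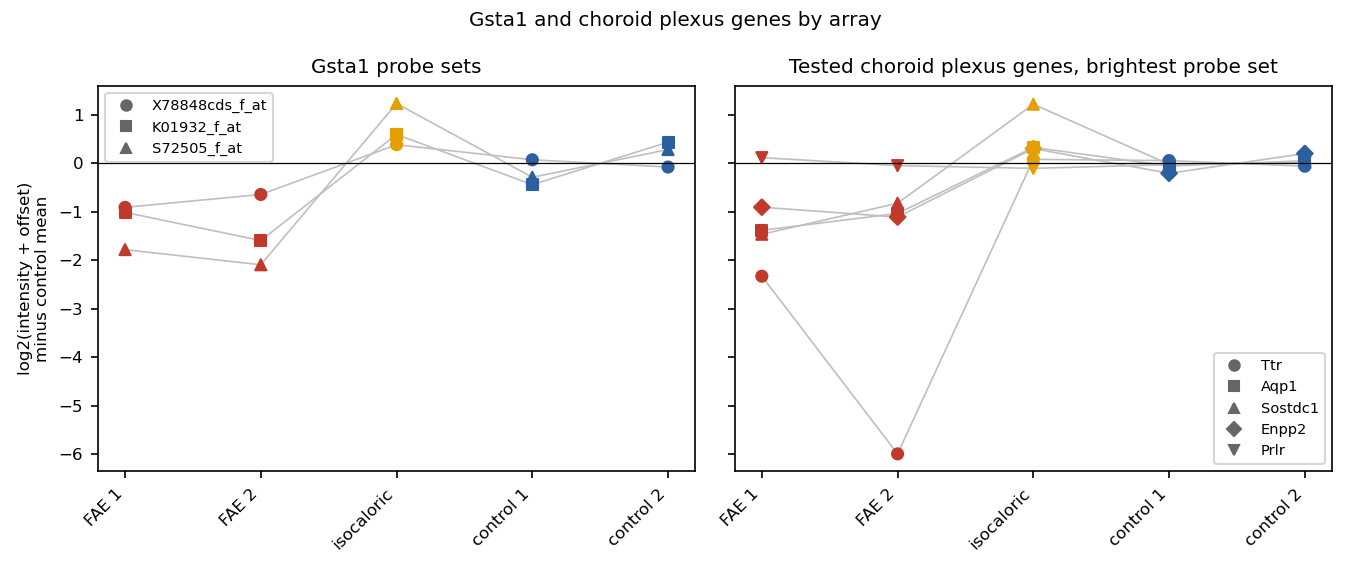
Log2(intensity + offset) minus the control mean on each array, for the 3 Gsta1 probe sets (left) and the 5 tested choroid plexus genes at their brightest probe set (right). The Gsta1 profiles and those of Ttr, Aqp1, Sostdc1 and Enpp2 lie below 0 on both FAE arrays and above 0 on the isocaloric array, and Prlr lies near 0 on every array.

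Among the tested probe sets of other genes, those with log2 profiles nearest to the brightest Gsta1 probe set, X78848cds_f_at, were Ace, Fxyd1, Btd, Nr1d1 and Vamp1. Likeness here is the root mean square distance between profiles centred on their own mean over 5 arrays, which was 0.12 for Ace, 0.12 for Fxyd1, 0.13 for Btd, 0.13 for Nr1d1 and 0.14 for Vamp1. Ace, the angiotensin-converting enzyme, measured 54.1 and 63.0 on the FAE arrays, 150 in the isocaloric sample and 99.2 and 117 on the control arrays. Fxyd1, phospholemman, a regulator of the sodium pump, measured 177 and 217 on the FAE arrays, 369 in the isocaloric sample and 328 and 268 on the control arrays. The other Gsta1 probe sets were farther away, at 0.52 for K01932_f_at and 0.83 for S72505_f_at.

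The other alpha genes gave other patterns. Gsta3 at S82820mRNA_s_at measured 86.0 and 65.9 on the FAE arrays, 62.3 in the isocaloric sample and 68.7 and 60.6 on the control arrays. Here the groups overlapped, and FAE minus control was 0.19 ± 0.24. Both remaining Gsta3 probe sets, S72506_s_at and rc_AA945082_at, were under the offset on all 5 arrays. Gsta4, whose product favours 4-hydroxynonenal, an aldehyde from lipid peroxidation, measured 92.7 and 70.7 on the FAE arrays, 89.4 in the isocaloric sample and 78.1 and 80.3 on the control arrays at X62660mRNA_g_at. The second Gsta4 probe set, X62660mRNA_at, measured 57.8 and 41.2 on the FAE arrays, 74.9 in the isocaloric sample and 48.0 and 47.1 on the control arrays. In both, the control arrays lay between the FAE arrays, and FAE minus control was 0.03 ± 0.24 and 0.03 ± 0.25. For Gsta2, the shared probe sets measured from 0.826 to 19.8 over the 5 arrays and were not tested.

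In the mu class, Gstm2 had lower signal in FAE at both probe sets, and Gstm1 gave probe sets that disagreed. Both genes encode enzymes of broad substrate range and are direct neighbours in the RefSeq order of rat genes. Gstm2 J03914cds_s_at measured 54.8 and 38.0 on the FAE arrays, 69.4 in the isocaloric sample and 70.4 and 148 on the control arrays. Gstm2 J02592_s_at measured 101 and 50.4 on the FAE arrays, 86.7 in the isocaloric sample and 89.4 and 149 on the control arrays. Control array 2 was the highest and FAE array 2 the lowest at both, and at J02592_s_at FAE array 1 lay above control array 1. The FAE minus control difference was -1.01 ± 0.34 at J03914cds_s_at (adjusted p = 0.735), and -0.52 without control array 2. At J02592_s_at it was -0.61 ± 0.35 (adjusted p = 0.945), and ran from -0.17 without FAE array 2 to -1.05 without FAE array 1. The control arrays differed from each other by 0.97 at J03914cds_s_at, about as much as the groups did. Meninges and connective tissue markers, 10 of 10 with a probe set, summed to 5529 and 2285 on the FAE arrays. The sum was 3839 in the isocaloric sample and 4650 and 7016 on the control arrays. This sum, in which Ptgds and Col1a1 were the largest terms, had the same highest and lowest array as Gstm2. Dcn, Lum and Crabp2 did not share both. In FAE minus control the 10 markers had a median of -0.68 at their brightest probe sets, with 10 of 10 negative, where 1510 of 3174 genes were. At least 1.5-fold lower without overlap were 2 of 10, against 3.21% of 3174 genes. Other probe sets had both signs for Dcn, from -0.26 to 0.11, and for Igf2, from -2.50 to 0.28. The part of meninges and connective tissue in the Gstm2 values was not tested.

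Gstm1 X04229cds_s_at measured 885 and 870 on the FAE arrays, 985 in the isocaloric sample and 1068 and 1351 on the control arrays. Both FAE arrays were lower than all others, and FAE minus control was -0.45 ± 0.22 (adjusted p = 0.911). Gstm1 J02810mRNA_s_at measured 897 and 589 on the FAE arrays, 925 in the isocaloric sample and 557 and 863 on the control arrays. Gstm1 H32189_s_at measured 505 and 476 on the FAE arrays, 337 in the isocaloric sample and 484 and 584 on the control arrays. In these 2 probe sets the FAE and control arrays overlapped, and the isocaloric array was the highest at J02810mRNA_s_at and the lowest at H32189_s_at. FAE minus control was 0.07 ± 0.30 at J02810mRNA_s_at and -0.12 ± 0.23 at H32189_s_at, and isocaloric minus control was 0.41 ± 0.37 and -0.64 ± 0.28. The 3 probe sets thus spanned 1.05 in the diet comparison, with both signs, so they give no common direction for Gstm1. Whether probes of Gstm1 and Gstm2 also pick up transcripts of other mu genes was not tested. The profiles nearest to Gstm1 X04229cds_s_at were those of Cdh22, a cadherin (distance 0.04), Alas2, the haem synthesis enzyme of red cells (0.04), and Eif4h, a translation factor (0.06). Both other Gstm1 probe sets were farther away, at 0.35 for J02810mRNA_s_at and 0.26 for H32189_s_at.

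The pi enzyme, Gstp1, which is also known to bind and restrain the stress kinase JNK, showed no separation of FAE from control. Probe set rc_AI012589_s_at measured 1152 and 781 on the FAE arrays, 1347 in the isocaloric sample and 693 and 1164 on the control arrays. X02904cds_s_at measured 366 and 301 on the FAE arrays, 427 in the isocaloric sample and 287 and 395 on the control arrays. The order of the 5 arrays was the same at both probe sets, with control array 1 the lowest, then FAE array 2, FAE array 1 and control array 2, and the isocaloric array the highest. FAE minus control was 0.08 ± 0.30 at rc_AI012589_s_at and -0.02 ± 0.26 at X02904cds_s_at. The gap between arrays of 1 group was larger than that, 0.56 between the FAE arrays and 0.74 between the control arrays at rc_AI012589_s_at. Isocaloric minus control was 0.58 ± 0.37 and 0.33 ± 0.32, with adjusted p-values of 0.853 and 0.899.

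In the theta class, Gstt2 was the single gene with a probe set that was higher on both FAE arrays than on both control arrays among those tested. Gstt2 rc_AI138143_at measured 97.5 and 125 on the FAE arrays, 116 in the isocaloric sample and 70.2 and 86.3 on the control arrays. The isocaloric array lay with the FAE arrays, above control, and FAE minus control was 0.45 ± 0.24 (adjusted p = 0.919). Gstt2 D10026_s_at measured 66.7 and 44.9 on the FAE arrays, 45.4 in the isocaloric sample and 33.2 and 56.7 on the control arrays, where the groups overlapped, with a difference of 0.27 ± 0.30. Gstt1, which acts on small halogenated compounds, measured between 5.17 and 10.1 over the 5 arrays, all under the offset, and was not tested.

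Mgst1, the microsomal enzyme, sits in the membranes of the endoplasmic reticulum and outer mitochondria. It measured 49.5 and 57.2 on the FAE arrays, 80.9 in the isocaloric sample and 72.0 and 80.7 on the control arrays. Both FAE arrays were lower than the 3 alcohol-free arrays, which lay close together. FAE minus control was -0.44 ± 0.23 and FAE minus isocaloric -0.52 ± 0.28, with adjusted p-values of 0.911 and 0.998. The nearest profiles were those of Nucb1, a calcium-binding protein of the Golgi (distance 0.01), Pafah1b3, a subunit of a phospholipase (0.03), and Myl2, a myosin light chain (0.04).

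**Figure D3:**
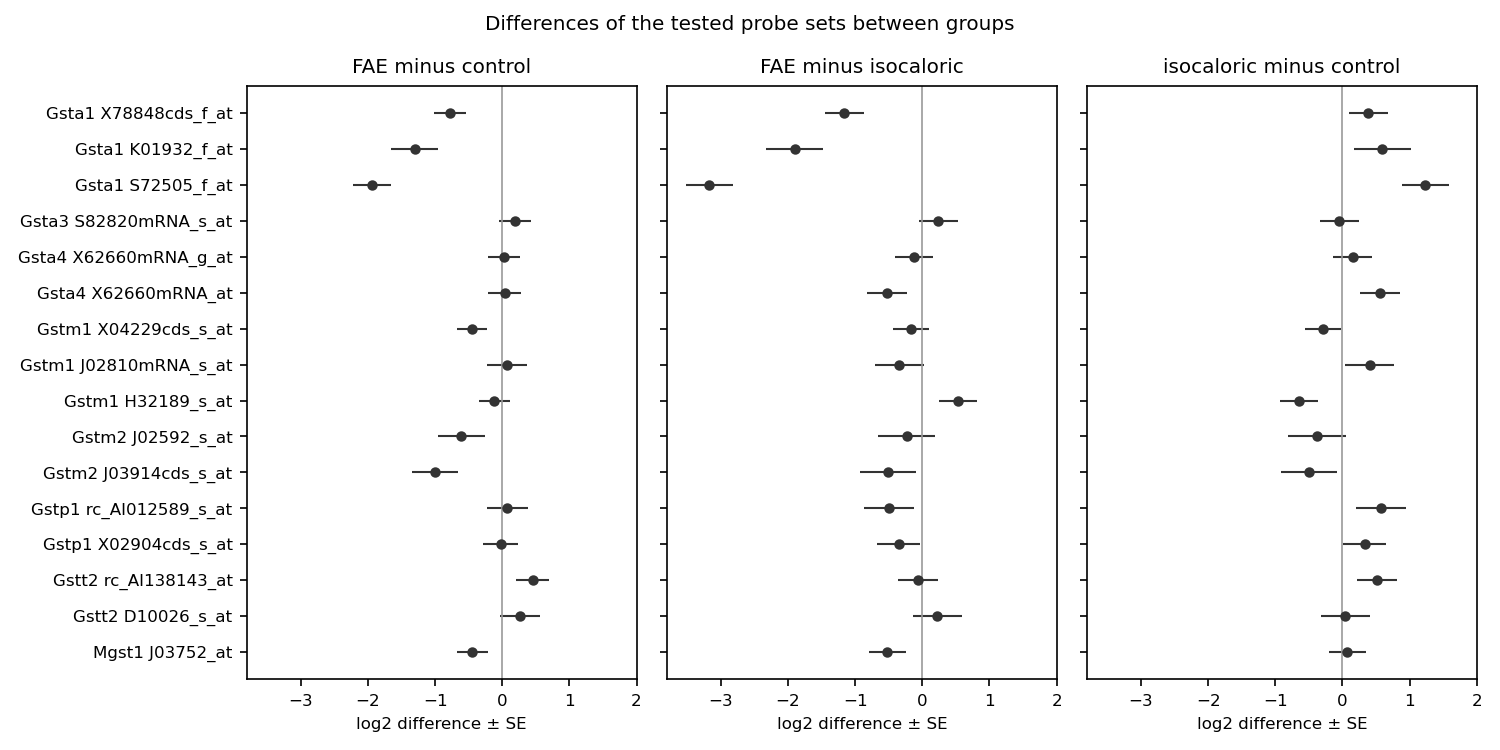
Log2 differences ± SE of the 16 tested member probe sets in FAE minus control, FAE minus isocaloric and isocaloric minus control. Gsta1 has the 3 lowest values in FAE minus isocaloric, from -3.17 to -1.16, and all but 1 of the other probe sets there lie between -0.52 and 0.24.

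Probe sets of a gene did not always agree. Of the 6 genes with at least 2 tested probe sets, 4 had a single sign in FAE minus control, Gsta1, Gsta4, Gstm2 and Gstt2. For Gsta1 the range between probe sets was 1.16, while for Gsta4 it was 0.005. Over the 16 probe sets the median of FAE minus control was -0.07, beside 0.005 over all probe sets tested, and 9 of 16 were negative, where 49.5% of all were. The members also varied within groups. The median log2 gap between the 2 FAE arrays was 0.34 for the members and 0.30 for all probe sets, and that between the 2 control arrays 0.39 for the members and 0.20 for all. The median size of FAE minus control was 0.36 over the members and 0.19 over all probe sets. For the members this was about as large as those gaps within a group. The gaps are between single arrays, while FAE minus control is between means of 2 arrays.

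In FAE minus isocaloric, 13 of 16 member probe sets were negative, where 50.3% of all probe sets were, with a median of -0.35. A difference of at least 1.5-fold was reached by 3 of 16 as lower, all of Gsta1, where 4.14% of all probe sets were lower by that much, and by 0 of 16 as higher, where 5.13% were. The same 3 had an unadjusted p under 0.05, against 1.54% of all as lower, and 0 of 16 did as higher, against 2.67%. In isocaloric minus control the median was 0.24, with 5 of 16 negative, where 48.6% of all were. Here 2 of 16 were at least 1.5-fold higher, both of Gsta1, against 4.12% of all, and 1 was lower, Gstm1 H32189_s_at, against 8.45%. An unadjusted p under 0.05 belonged to 1 of 16 as higher, Gsta1 S72505_f_at, against 1.37% of all, and to 0 of 16 as lower, against 5.43%. Both comparisons use the same single isocaloric array. Gsta1 K01932_f_at and S72505_f_at, counted in both, were tested only because of their values on the isocaloric and control arrays.

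Of 21 other listed genes of the transferase classes and of the MAPEG family, 8 were tested. In FAE minus control 0 passed in either direction, the median was 0.09 and 3 of 8 were negative. By size, 2 of 8, Alox5ap and Gstk1, were at least 1.5-fold lower in FAE without overlap, against 3.21% of 3174 genes. In the other direction 0 of 8 were, against 1.2%. The largest difference was that of Alox5ap, a MAPEG protein needed for leukotriene synthesis, at -1.40 ± 0.24 (limma adjusted p = 0.178). Its brightest probe set measured 20.7 and 17.1 on the FAE arrays, 73.7 in the isocaloric sample and 63.9 and 71.0 on the control arrays. The other Alox5ap probe set, too dim to be tested, had -0.67. Gstk1, the mitochondrial and peroxisomal kappa enzyme, had -0.80 ± 0.27 at its brightest probe set and -0.05 at the other. Gstm7, a mu gene, measured 394 and 332 on the FAE arrays, 304 in the isocaloric sample and 543 and 502 on the control arrays (-0.52 ± 0.23). For Gstm7 the isocaloric array was the lowest, below the FAE arrays, and the control arrays were the highest.

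Of 27 listed genes that make, recycle or export glutathione, 10 were tested at their brightest probe set. These had differences between -0.20 and 0.43, with 0 passing in either direction, 3 negative and a median of 0.04. Their other tested probe sets ran from -0.30 (Anpep) to 0.14 (Slc1a1), and those too dim to be tested from -0.69 (Abcc1) to 0.08 (Gss). The genes too dim to be tested ran from -0.72 (Gclc) to 0.12 (Dpep1) at their brightest probe set. Slc1a1, a carrier that brings cysteine into neurons, had 0.43 ± 0.26, Gss, glutathione synthetase, 0.29 ± 0.26, and Gclm, the modifier subunit of the first enzyme of synthesis, -0.20 ± 0.24. For Slc1a1 both other probe sets gave 0.14 and 0.13. The other probe sets of Gss (0.08) and Gclm (0.02 and -0.06) were too dim to be tested. Gclc, the catalytic partner of Gclm, was too dim to be tested, at 5.28 and 14.6 on the FAE arrays, 25.0 in the isocaloric sample and 18.8 and 26.2 on the control arrays. Of 22 listed NRF2 targets and partners 8 were tested, 0 passed, 5 were negative and the median was -0.04. Ephx1, microsomal epoxide hydrolase, had -0.43 ± 0.27, Gclm the value above, and Mafk, a small Maf partner, 0.18 ± 0.23. Over all 3174 genes with 1 tested probe set each, the median was 0.01.

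**Figure D4:**
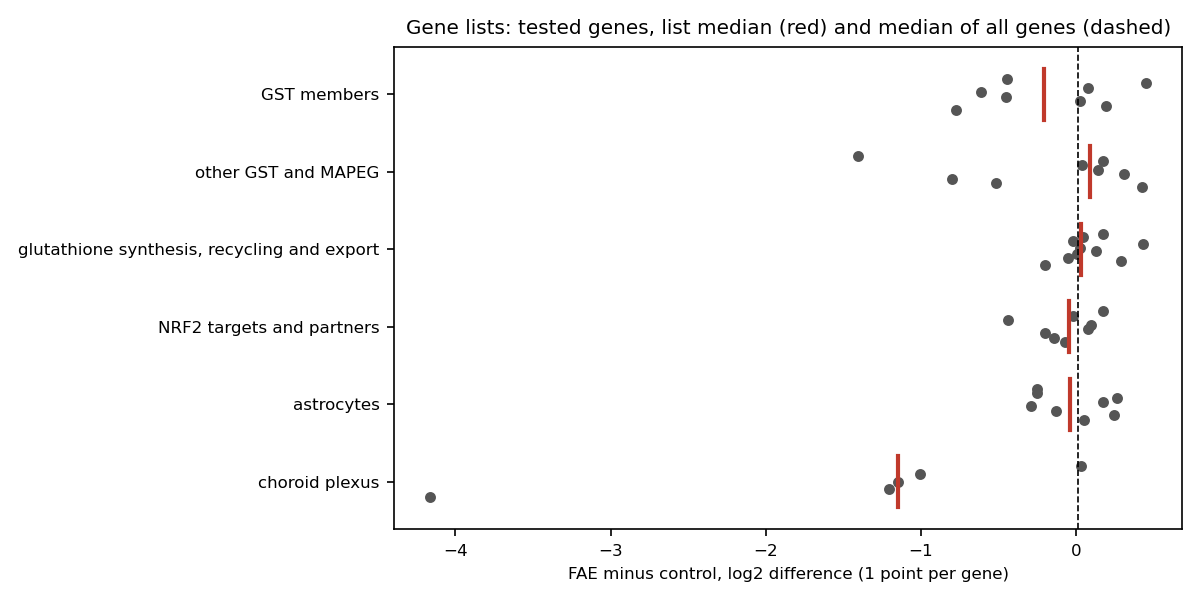
FAE minus control log2 difference of each tested gene (points, brightest probe set) for the transferases, 3 other lists and 2 cell type lists; red bars are list medians and the dashed line is the median of all genes, 0.01. The choroid plexus list has a median of -1.14, and the astrocyte list, with a median of -0.04, lies near 0.

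Markers of astrocytes, oligodendrocytes and neurons were also summed at their brightest probe sets. Astrocyte markers, 8 of 9 with a probe set, summed to 4876 and 4624 on the FAE arrays, 4952 in the isocaloric sample and 5124 and 4936 on the control arrays. In FAE minus control 4 of 8 were negative, where 1510 of 3174 genes were. Other tested probe sets of these genes ran from -0.86 (Glul) to 0.18 (Slc1a3). Oligodendrocyte markers, 5 of 6 with a probe set, summed to 466.3 and 375.2 on the FAE arrays, 308.5 in the isocaloric sample and 413.5 and 397.4 on the control arrays. Neuronal markers, 7 of 10 with a probe set and 6 of these tested, summed to 5511 and 5971 on the FAE arrays, 5024 in the isocaloric sample and 5684 and 5411 on the control arrays. Over the 6 tested the median of FAE minus control was 0.04, with 2 negative. Nrgn, Snap25, Elavl4 and Gap43 had 0.32, 0.16, 0.08 and 0.01 at their brightest probe sets. The other probe sets gave -0.05, 0.04 and -0.11 for Snap25, 0.42 for Nrgn and 0.08 for Elavl4. The 2 negative markers were lower in FAE by at least 1.5-fold without overlap, against 3.21% of 3174 genes. These were Neurod1, a transcription factor of granule neurons, and Syn1, a synaptic vesicle protein. Neurod1 measured 109 and 221 on the FAE arrays, 126 in the isocaloric sample and 241 and 251 on the control arrays (-0.63 ± 0.32, adjusted p = 0.911). Syn1 gave 296 and 441 on the FAE arrays, 389 in the isocaloric sample and 504 and 620 on the control arrays (-0.61 ± 0.27, adjusted p = 0.895). The part of neuronal content in the transferase values was not tested. Prox1, Neurod6 and Stmn2 had no probe set with 1 symbol.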

How the data were processed

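Total RNA of rat hippocampus was measured on 5 single-colour arrays (2 FAE, 1 isocaloric, 2 control). The deposited values are linear intensities per probe set; the labels name no software or scaling. Their 2% trimmed means lay within a factor of 1.1, so the columns were used as deposited. The 59 control probe sets were left out, 10.605 (20th percentile) was added before log2, and probe sets under the 40th percentile of mean log2 were not tested, which left 5244 of 8740. The 3 comparisons came from 1 model in limma 3.58.1 (R 4.3.3; lmFit, eBayes with an intensity trend, 2-sided, Benjamini-Hochberg adjustment over all tested probe sets, threshold 0.05), with 2 residual and 6.30 prior degrees of freedom. The fit was run on simulated arrays with independent normal noise, where the check was that its mean estimate lay near the effect put in. That check does not give the error rate or power for these arrays. Scan dates and detection calls were not used here.

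Gene names are those of the platform annotation, with current symbols for 6985 of 7006 probe sets with 1 symbol through RefSeq (GRCr8), which also gave the promoter windows. Every member probe set is reported; of the 3 other transferase, glutathione and NRF2 lists up to 3 genes each with the largest FAE minus control difference are named. Gclc and the cell type markers named were chosen after their values were seen. The members and lists were chosen with earlier results of these data known. Alternatives were other normalizations, offsets, filters and variance models, a replicate block and leaving out each array. No columns were identical, and 0 were without a sample. The replicate numbers of the labels were not used as pairs (correlation of deviations -0.113).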

Additional observations from a re-analysis of the deposited data

How the results depend on the processing

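With 2 arrays per group and 1 isocaloric array, the counts of calls moved with the settings. In FAE minus control 1 probe set passed with quantile normalization, 9 with equal medians, 1 with an offset of 50 and 0 to 25 when 1 array was left out. In FAE minus isocaloric 3 passed with quantile normalization, 3 with equal medians and 0 to 12 with 1 array left out, and in isocaloric minus control 0 to 13. The paired fit with a replicate block (4 arrays) passed 8 probe sets, Gsta1 S72505_f_at among them (adjusted p = 0.0425), and the crossed replicate block, added after seeing the data, passed 21; with 2 pairs the numbers cannot be shown to pair the samples. Member probe sets lower by size numbered 0 with the filter at the 60th percentile, which left 8 tested, and 3 to 6 with 1 array left out (4 in the fit reported); those higher numbered 0 to 1.

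Signs turned for small differences. With equal medians Gstp1 X02904cds_s_at gave 0.021 in FAE minus control, and Gsta3 S82820mRNA_s_at in isocaloric minus control gave 0.0096, and 0.0009 with quantile normalization. With 1 array left out, FAE minus control ran from -0.14 to 0.20 for Gsta4 X62660mRNA_g_at, -0.17 to 0.23 for X62660mRNA_at, -0.24 to 0.38 for Gstm1 J02810mRNA_s_at, -0.25 to 0.018 for H32189_s_at, -0.29 to 0.45 for Gstp1 rc_AI012589_s_at, -0.25 to 0.20 for X02904cds_s_at and -0.040 to 0.58 for Gstt2 D10026_s_at. FAE minus isocaloric ran from -0.30 to 0.047 for Gsta4 X62660mRNA_g_at, -0.67 to 0.20 for Gstm2 J02592_s_at, -0.23 to 0.10 for Gstt2 rc_AI138143_at and -0.013 to 0.47 for D10026_s_at. Isocaloric minus control ran from -0.12 to 0.034 for Gsta3 S82820mRNA_s_at and -0.27 to 0.35 for Gstt2 D10026_s_at. The cause was not tested. No Gsta1 difference changed sign under these settings; with an offset of 1, S72505_f_at fell under the filter and was not tested, and with an offset of 50 its FAE minus control difference was -0.90.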

Other observations

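Hmox1, haem oxygenase 1, an NRF2 target, measured 148 and 93.1 on the FAE arrays, 268 in the isocaloric sample and 117 and 145 on the control arrays at its brightest probe set, so that the single isocaloric array was the highest. Sqstm1, an autophagy receptor, was the lowest on that array, at 11.6, with 36.5 and 38.4 on the FAE arrays and 59.6 and 30.8 on the control arrays, and was under the intensity filter. Both were chosen after their values were seen.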
